A study of Mus musculus with 2 samples.

Results

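Tumour neutrophils were taken from single-cell RNA data of subcutaneous Lewis lung carcinoma (LLC) tumours of mice, LLC being a mouse lung cancer cell line. Members were chosen by measured counts: a barcode counted as a neutrophil when it held at least 4 unique molecular identifiers (UMIs, counts of single RNA molecules) summed over S100a8, S100a9, Csf3r, Cxcr2 and Hdc, at least 1 of them from Csf3r, Cxcr2 or Hdc, and none of Ccr2, Cd3e or C1qa. It also had at least 300 genes, at most 20% mitochondrial UMIs and fewer than 500 UMIs per 1000000 (CPM) summed over the tumour genes Hmga2, Igf2bp1, Igf2bp2 and Wnt7b. This gave 184 members of 17864 deposited barcodes, 76 of 9423 in the anti-PD-1 library and 108 of 8441 in the control library.

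The anti-PD-1 library holds tumour cells collected 7 days after mice received anti-PD-1, which blocks the T cell brake PD-1. The control library holds cells of mice that received IgG2a as isotype control, per the sample labels, although the series text calls these cells untreated, and no collection time is given for them. Both libraries came from LLC tumours grown under the skin. The number of mice, their strain and their age are not given in the sources used here. With 1 library per group there is no replicate check: every difference compares these 2 libraries, the treatment cannot be told apart from animal, collection time or preparation, and no p-value is given. Intervals are 95% and cover counting error only.

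Neutrophils are short-lived white blood cells that leave the bone marrow under the cytokine G-CSF, whose receptor is Csf3r. They enter tissue along gradients of CXC chemokines such as Cxcl2, which bind Cxcr2. S100a8 and S100a9 pair to form calprotectin, an abundant protein of the neutrophil cytoplasm, and Hdc makes histamine. In mouse tumours neutrophils are known to take on states that differ from those in blood, with inflammatory cytokines, checkpoint ligands and glycolytic genes.

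S100a9 is shown as an example of a myeloid promoter, because it is the only one of the 5 marker genes whose promoter held the letters searched for. In the RefSeq promoter on GRCm38.p6, the 30 bases from 247 to 218 bases before the start of S100a9 (chr3:90695939-90695968, minus strand) read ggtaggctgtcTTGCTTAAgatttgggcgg. Capitals mark a match to TTGCNNAA, the letters searched for on both strands as the binding motif of C/EBP factors, which drive granulocyte genes. Of 32851 promoters of 300 bases, 10.8% held such a match, and 9.37% of the promoters of genes measured in the neutrophils did. The promoters of S100a8, Csf3r, Cxcr2 and Hdc held none.

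The members were shallow. Their median was 753.5 UMIs in anti-PD-1 and 767 in control, which is 8.62% and 10.3% of the median of all barcodes in the same library (8743 and 7385 UMIs). Of them, 55 in anti-PD-1 (72.4%) and 77 in control (71.3%) held fewer than 1000 UMIs, and the shallowest deposited barcodes had 494 and 493 UMIs, so neutrophils below that depth were not analysed here. The library totals were 115407000 UMIs in anti-PD-1 and 113269000 in control, to 6 digits. The libraries shared 107 barcode sequences, and no barcode was a member in both.

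The median sum over the 5 marker genes was 11 UMIs in both libraries, and the highest was 62 in anti-PD-1 and 51 in control. Just inside the threshold, 10 anti-PD-1 and 12 control barcodes had a sum of 4. Just outside, 8 and 15 barcodes had a sum of 3. A further 56 anti-PD-1 and 71 control barcodes met the marker rule but lay at or above the tumour-gene limit, which a single tumour-gene UMI passes in a barcode of under 2000 UMIs.

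A small group of deep members stood apart. In anti-PD-1, 8 members held more than 3 times the median UMI count of the members (over 2260.5 UMIs), and in control 10 did (over 2301 UMIs). They contributed 37.3% and 37.9% of all members' UMIs. The 5 marker genes made up a median 0.145% of their UMIs in anti-PD-1 and 0.109% in control, against 1.61% and 1.42% in the shallower members. The deepest anti-PD-1 member (8016 UMIs) was led by Igfbp7, Col4a1, Aqp1, Lrg1 and Selp, genes of vessel walls, and the third deepest (5484 UMIs) by the collagen genes Col3a1, Col1a2 and Col1a1. Lyz2, Ctsb, Apoe and Psap, genes of macrophages and other phagocytes, led some of the others. In control, Vim was the leading gene of 5 deep members. At least 2 neutrophil genes outside the rule were still found in 6 of the 8 and 8 of the 10. Several of these barcodes went against their label, so the main results between the libraries are given over all 184 members and over the 166 shallower ones (68 anti-PD-1 and 98 control, with 56424 and 79383 UMIs).

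**Figure D1:**
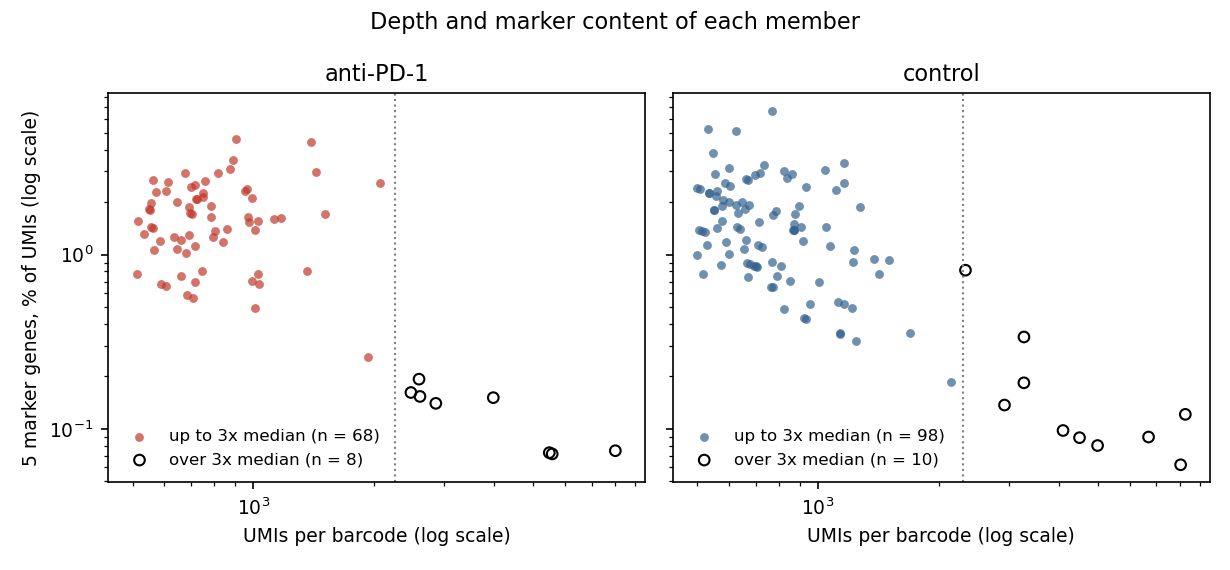
Depth against marker content of every member, anti-PD-1 left and control right. Each point is 1 barcode, with its UMI count on the x axis and the percentage of its UMIs from the 5 marker genes on the y axis (both log scales), and the dotted line is 3 times the median UMI count. The 8 anti-PD-1 and 10 control members right of the line (open circles) lie below most of the others in marker content.

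The label was checked with 19 neutrophil genes that the rule did not use. At least 2 of them were detected in 64 of 68 shallower anti-PD-1 members (94.1%) and in 92 of 98 shallower control members (93.9%), with medians of 5 and 4 genes per barcode. Among all other kept barcodes, 26.3% in anti-PD-1 and 36.9% in control had at least 2, at median depths of 8835.5 and 7651 UMIs. The secondary granule genes Ltf, Camp and Ngp, which are transcribed in marrow precursors, had 1, 0 and 0 UMIs in anti-PD-1 and 2, 1 and 0 UMIs in control over all members. Ly6g, the antigen of the usual neutrophil antibody in mice, had 2 UMIs in anti-PD-1 and 1 in control, so this defining marker was close to absent in the counts. Retnlg, a gene of circulating mouse neutrophils, had 21 UMIs in 5 anti-PD-1 members and 24 UMIs in 12 control members.

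Markers of other cells were scarce in the members, apart from red blood cell, macrophage, monocyte, vessel and connective tissue genes. The red blood cell list had 12 UMIs in anti-PD-1 and 212 in control over all members, and 12 and 149 over the shallower ones. Over all members, the basophil and mast cell list had 2 UMIs in anti-PD-1 and 3 in control. Basophils and mast cells share Hdc with neutrophils. The eosinophil list had 2 and 7 UMIs, the azurophil granule list 3 and 8, the T and NK cell list 6 and 17, and the B cell list 3 and 1. Fibroblast genes had 635 UMIs in anti-PD-1 and 152 in control over all members, but 32 and 70 over the shallower ones. Endothelial genes had 59 and 15 UMIs over all members, and 2 and 7 over the shallower ones. Macrophage genes, Apoe among them, kept 183 UMIs in anti-PD-1 and 145 in control over the shallower members, monocyte genes 25 and 64, and dendritic cell genes 6 and 18. The part of these genes in the results was not tested.

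Neutrophils were scarcer in anti-PD-1. They were 0.807% of kept barcodes in anti-PD-1 (76 of 9422, interval 0.636 to 1.01) and 1.29% in control (108 of 8395, 1.06 to 1.55), a difference of -0.48 percentage points (-0.795 to -0.174). Among barcodes below the tumour-gene limit, which leaves most tumour cells out, the shares were 2.62% in anti-PD-1 (76 of 2900) and 3.54% in control (108 of 3052), a difference of -0.918 points (-1.82 to -0.0159). Among barcodes classed as neutrophil, monocyte, macrophage or T cell they were 5.56% in anti-PD-1 (76 of 1368) and 8.50% in control (108 of 1271). In both libraries members lie close to the lowest deposited UMI count. With every barcode thinned to 500 UMIs the shares of kept barcodes were 0.680% in anti-PD-1 (64 members) and 0.967% in control (81 members). With the tumour-gene limit applied only to barcodes with at least 2 UMIs of those genes, 108 anti-PD-1 and 138 control barcodes were members, 1.15% and 1.64% of kept barcodes, and the difference below the limit was -0.537 points. Below the limit it was also -0.404 with a marker sum of at least 8, -0.243 with no limit on Ccr2, Cd3e and C1qa, -0.317 with at least 1000 genes, and -0.422 and -0.455 at 1000 and 500 UMIs per barcode. With at least 1000 genes required, 10 and 15 members were left, most of them deep members, and the difference over kept barcodes was -0.102 points.

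Genes outside the rule were also set against the other myeloid cells. Monocytes here were barcodes with at least 4 UMIs summed over Ccr2 and its fellow monocyte genes Chil3 and Plac8, Ccr2 among them, and macrophages those with at least 4 UMIs of the C1q genes. Of 807 genes with at least 50 UMIs over all members, 50 were over 4-fold higher in neutrophils than in both monocytes and macrophages in both libraries (6.2%), and 0 were over 4-fold lower in this sense (0%). The minimum of 50 UMIs in neutrophils left out genes that are low there, so nothing is read from 50 against 0. The genes of the rule had to be among them, so Cxcr2, S100a8, S100a9, Hdc and Csf3r are a description of the choice. This comparison covers the same 2 libraries that gave the members, and no test was made.

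Genes that the rule did not use followed close behind. G0s2, an inhibitor of triglyceride lipase, stood at 1233 CPM in anti-PD-1 and 665.4 CPM in control neutrophils, with no UMI in monocytes of either library and 3.99 and 9.10 CPM in macrophages. Hcar2, a receptor for niacin and ketone bodies, stood at 1944 and 1613 CPM in neutrophils, against 20.6 and 38.9 CPM in monocytes. Mmp9, the gelatinase of neutrophil granules, reached 933.2 CPM in anti-PD-1 and 540.1 CPM in control, against 4.33 and 10.4 CPM in monocytes and 22.1 and 47.4 CPM in macrophages. All of these are log2 leads of more than 3 over both other classes.

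Enzymes and receptors with a role in inflammation showed the same order. Arg2, the mitochondrial arginase, had 633.3 CPM in anti-PD-1 and 532.3 CPM in control neutrophils, and its lead over the nearer class was at least 3.77 on the log2 scale. Acod1, which makes itaconate, had 1033 and 994.2 CPM, with a lead of at least 3.61. Il1r2, the decoy receptor that binds interleukin 1 without signalling, had 1244 and 798.5 CPM, with a lead of at least 3.43. Slc2a3, a high-affinity glucose transporter, had 766.6 and 414.9 CPM, with a lead of at least 3.28. The inhibitory receptor gene Cd33 and the autophagy gene Atg2a also belonged to the 20 highest.

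Cxcr2, the receptor for the neutrophil-attracting chemokines, is part of the rule, so its detection in the members was set by the choice and is given as a description. With each barcode thinned to 500 UMIs, it was detected in 47.4% of anti-PD-1 and 35.5% of control neutrophils. In T cells, which lack it, it was detected in 0 of 49 and 0 of 129 barcodes, and in tumour cells in 0.384% and 0.543%. The median depth was 1497 and 1385 UMIs in T cells, against 753.5 and 767 UMIs in neutrophils. Unthinned, it was detected in 52.6% and 45.4% of neutrophils and in 0% and 2.33% of T cells.

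The neutrophils carried a ligand of their own receptor. Cxcl2 stood at 7644 CPM in anti-PD-1 and 5707 CPM in control neutrophils, against 603.3 and 1074 CPM in monocytes, 379.97 and 395.2 CPM in macrophages and 47.0 and 81.5 CPM in tumour cells. Cxcl3 stood at 722.1 and 947.2 CPM in neutrophils, against 157.1 and 281.4 CPM in monocytes. Cxcl5, which in mouse is made chiefly by epithelial cells, had 1 UMI in the neutrophils of each library. Csf1, the growth factor of macrophages, stood at 733.3 CPM in anti-PD-1 and 759.3 CPM in control neutrophils, against 736.2 and 570.3 CPM in tumour cells. Csf2 had 0 and 1 UMI.

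**Figure D2:**
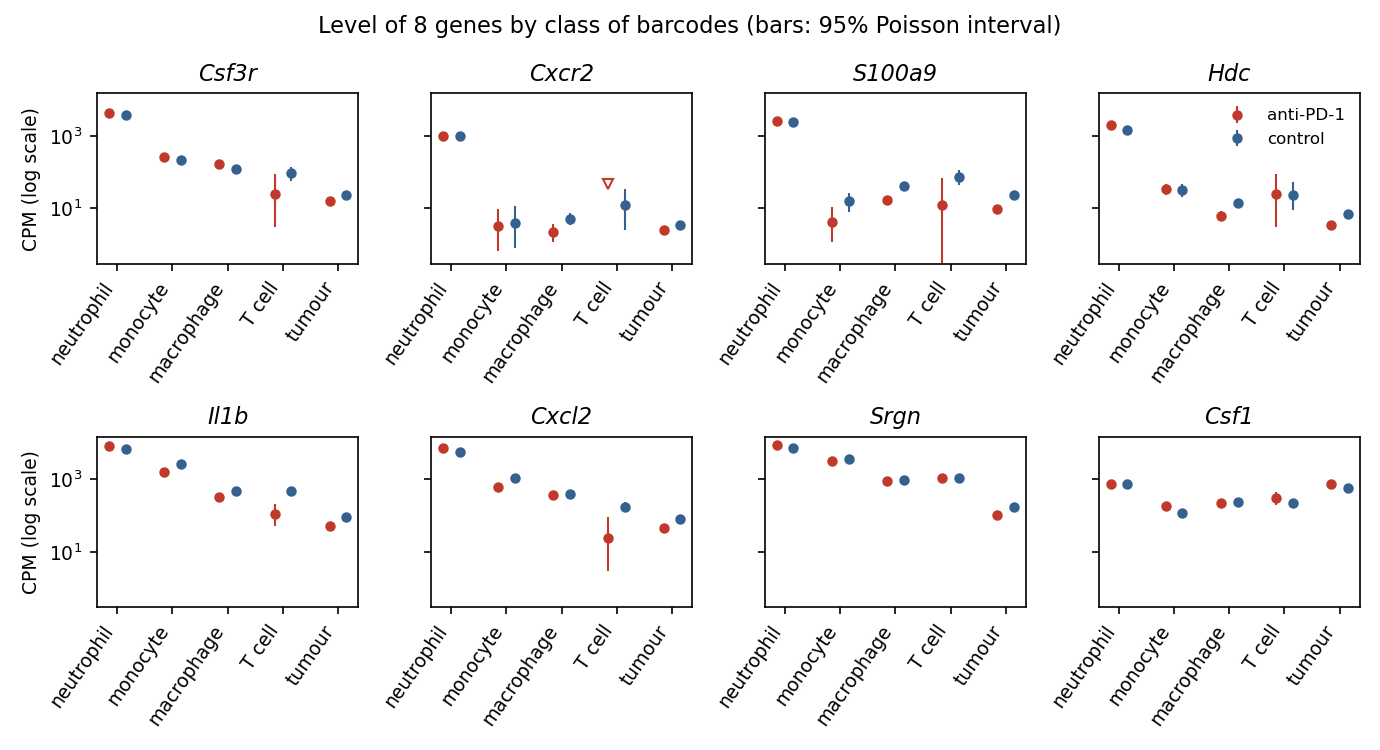
Level of 8 genes by class of barcodes, anti-PD-1 in red on the left of each pair and control in blue on its right. Points are CPM of summed UMIs on a log scale, bars are 95% Poisson intervals, and the open triangle is the upper limit where no UMI was found. Csf3r, Cxcr2, S100a9 and Hdc chose the neutrophils. Il1b, Cxcl2 and Srgn were not used for that and are also highest there, while Csf1 is at a similar level in tumour cells in anti-PD-1 and lower in them in control.

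Genes with the most UMIs in the shallower members, which were picked after their values were seen, were led by Srgn, Il1b, Cxcl2, Thbs1, Vim, Csf3r and Slfn4. The counts come from gene-specific probes, so they rank UMIs and not RNA levels between genes. Srgn, the core protein of granule proteoglycans, had 786 UMIs in 62 of 68 anti-PD-1 members and 876 UMIs in 94 of 98 control members. Il1b, the pyrogenic cytokine interleukin 1 beta, had 716 UMIs in 59 members and 842 UMIs in 76 members. Thbs1, a matrix glycoprotein that restrains angiogenesis, had 584 UMIs in 43 members and 484 UMIs in 53 members. Slfn4, an interferon-induced myeloid gene, had 325 UMIs in 57 members and 354 UMIs in 71 members.

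Fewer genes passed 2-fold between the libraries once the deep members were left out. Over all members, anti-PD-1 was over 2-fold higher in 51 of the 807 measured genes (6.32%) and over 2-fold lower in 49 (6.07%), with a median log2 ratio (anti-PD-1 over control) of 0.05. Among the shallower members it was over 2-fold higher in 11 of 447 measured genes (2.46%) and over 2-fold lower in 12 (2.68%), with a median of 0.11. Of the 15 highest ratios among genes with at least 100 UMIs, 11 had more than 50% of their anti-PD-1 UMIs in 1 member, and 3 were still measured in the shallower members. Of the 15 lowest, 1 had such a member, and 14 were still measured in the shallower members, of which 7 stayed over 2-fold lower.

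The genes of the rule differed little between the libraries. S100a9 had 230 UMIs in 46 anti-PD-1 members and 307 UMIs in 66 control members (2555 and 2403 CPM), a log2 ratio of 0.09 (-0.16 to 0.34). The ratios of S100a8, Cxcr2 and Csf3r were 0.01, 0.06 and 0.19, with intervals that span 0. Hdc stood higher in anti-PD-1, with 180 UMIs in 55 members and 2000 CPM, against 186 UMIs in 72 control members and 1456 CPM, a log2 ratio of 0.46 (0.15 to 0.76). Without deep members it was 0.52 (0.20 to 0.83). Since the sum over these genes chose the members, the ratios describe the choice.

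Neutrophil genes outside the rule leaned toward anti-PD-1. Of the 19 listed, 8 were measured, and their median log2 ratio was 0.52 over all members and 0.45 over the shallower ones, with 8 of 8 above the median gene in both. G0s2 had 111 UMIs in 28 anti-PD-1 members and 85 UMIs in 35 control members, a log2 ratio of 0.89 (0.47 to 1.32), and 0.82 over the shallower members. Mmp9 had 84 UMIs in 30 members and 69 UMIs in 34 members, a log2 ratio of 0.79 (0.31 to 1.27), and 0.85 over the shallower members. G0s2 was thus found in 36.8% of anti-PD-1 and 32.4% of control members, and Mmp9 in 39.5% and 31.5%. Il1r2 had a log2 ratio of 0.64 (0.24 to 1.04), and 0.60 over the shallower members. For Clec4e, which senses mycobacterial and damaged-cell lipids, it was 0.64 (0.07 to 1.21), and 0.74 over the shallower members. Clec4d, Slpi, Mxd1 and Trem1 had ratios of 0.28, 0.26, 0.10 and 0.39, with intervals that span 0. None of the 8 reached 2-fold, against 6.32% of all measured genes.

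Of 16 listed sensors of microbial and damage signals, 5 were measured, with intervals above 0 for 3 over all members and 2 over the shallower ones. Cd14, which hands lipopolysaccharide to its receptor, had 278 UMIs in 54 anti-PD-1 members and 251 UMIs in 61 control members, a log2 ratio of 0.65 (0.40 to 0.90), and 0.40 (0.13 to 0.67) over the shallower members. Nlrp3, the sensor of an inflammasome, had a ratio of 0.61 (0.04 to 1.19), and 0.58 over the shallower members, where the interval spans 0. All 5 measured genes of the pattern-recognition list, of which Clec4d, Clec4e and Trem1 are shared with the neutrophil list, lay above the median gene, with a list median of 0.61 over all members and 0.40 over the shallower ones.

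Cytokines of the interleukin 1 axis differed by less than 2-fold. Il1b had 735 UMIs in 63 anti-PD-1 members and 875 UMIs in 82 control members (8166 and 6850 CPM), a log2 ratio of 0.25 (0.11 to 0.40), and 0.26 over the shallower members. Its natural antagonist Il1rn had 49 and 84 UMIs and a ratio of -0.27 (-0.81 to 0.25). Osm, an interleukin 6 family cytokine that neutrophils store, had 119 UMIs in 35 members and 108 UMIs in 39 members, a ratio of 0.65 (0.26 to 1.03), and 0.64 over the shallower members. Tnf was close to the limit of the counts, with 2 UMIs in anti-PD-1 and 9 in control. Il1b had ratios of -0.74 in monocytes and -0.53 in macrophages, on the other side of 0 from neutrophils. That difference between classes was not tested.

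The chemokine genes lay on both sides of 0. Cxcl2 had 688 UMIs in 54 anti-PD-1 members and 729 UMIs in 77 control members, a log2 ratio of 0.42 (0.27 to 0.57), and 0.47 over the shallower members. Ccl3, which draws monocytes and other cells, stood lower in anti-PD-1, with 83 UMIs in 25 members and 922.1 CPM, against 224 UMIs in 48 control members and 1753 CPM. Its log2 ratio was -0.93 (-1.31 to -0.56) over all members and -0.73 (-1.13 to -0.34) over the shallower ones, and -1.39 when the member with the most Ccl3 was left out of each library. Its neighbour and close relative Ccl4 had a ratio of 0.18 (-0.19 to 0.54) over all members and 0.45 (0.06 to 0.85) over the shallower ones, on the other side of 0 from Ccl3. Over the 10 measured chemokines the median was -0.35, with 8 below the median gene, and over the 5 measured in the shallower members it was -0.17.

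Spp1 stood out among the genes higher in anti-PD-1. Spp1 encodes osteopontin, a secreted protein that binds integrins and Cd44. It had 129 UMIs in 31 anti-PD-1 members and 73 UMIs in 23 control members (1433 and 571.5 CPM), a log2 ratio of 1.33 (0.90 to 1.76). Without deep members it had 117 UMIs in 27 of 68 and 37 UMIs in 17 of 98, a log2 ratio of 2.15 (1.61 to 2.73), and 2.09 without the member richest in it. With each shallower member thinned to 500 UMIs it was detected in 36.8% (25.4 to 49.3) in anti-PD-1 and 10.3% (5.06 to 18.1) in control.

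Spp1 also differed outside the neutrophils. In tumour cells, its log2 ratio was 1.01 and it was detected at 500 UMIs in 32.3% of anti-PD-1 and 17.8% of control barcodes. In monocytes it was detected in 30.6% of anti-PD-1 and 22.8% of control barcodes, and in macrophages in 22.1% and 14.9%. The anti-PD-1 monocyte share lay within the interval of the shallower anti-PD-1 neutrophils (25.4 to 49.3). In T cells, which serve here as a background, it was detected in 8.16% and 10.9%. The anti-PD-1 neutrophils lay above that T cell level, and the control neutrophils, at 10.3%, did not exceed it. How far RNA from tumour cells contributes to Spp1 in the neutrophils was not tested. With at least 1000 genes required, 10 anti-PD-1 and 15 control members were left, and 8 and 10 of these were the deep members. Among them the ratio of Spp1 was -0.97, and those of Thbs1, Cxcl2 and Il1b, all above 0 over all members, were -1.58, -0.60 and -0.033. Cd44, one of its receptors, had 258 UMIs in 59 anti-PD-1 members and 224 UMIs in 81 control members, a log2 ratio of 0.71 (0.45 to 0.97), and 0.65 over the shallower members.

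Apoe resembled Spp1 over summed counts but rested on 1 barcode. Its log2 ratio was 1.06 over all members and 1.73 over the shallower ones, where 1 anti-PD-1 member held 102 of 130 UMIs. Without the member richest in Apoe in each library, the ratio over the shallower ones was -0.12 (-0.86 to 0.60). Csf3, which encodes G-CSF itself, had 53 UMIs in anti-PD-1 and 2 in control, in 3 and 2 members. In anti-PD-1, 1 member held 49 of the 53. Without the richest member of each library, 4 and 1 UMIs were left.

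Other genes with intervals above 0 were found in unequal numbers of members. Jak2, the kinase behind the receptors for G-CSF and interferon gamma, had 66 UMIs in 32 anti-PD-1 members and 47 UMIs in 34 control members, a log2 ratio of 0.99 (0.43 to 1.57), and 1.08 over the shallower members. Slc2a3 had 69 UMIs in 13 members and 53 UMIs in 23 members, a ratio of 0.89 (0.35 to 1.43), and 0.90 over the shallower members. At 500 UMIs it was detected in 17.6% of shallower anti-PD-1 and 18.6% of shallower control members. Entpd1, the CD39 enzyme that breaks down extracellular ATP, had a ratio of 0.67 (0.30 to 1.04), and Cd47, a ligand that restrains phagocytosis, one of 0.75 (0.21 to 1.29). Without deep members these were 0.63 and 0.88. Thbs1, named after its values were seen, had a ratio of 0.45 (0.29 to 0.61) over all members and 0.76 (0.59 to 0.94) over the shallower ones.

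Interferon genes were mixed. Among type I interferon-stimulated genes, 17 were measured, with a median of -0.05 over all members, where 7 lay above and 10 below the median gene. Without deep members, 11 were measured, with a median of 0.25. Ifit3, which takes part in the antiviral response to foreign RNA, was the only one of the 17 over 2-fold, with 46 UMIs in 19 anti-PD-1 members and 24 UMIs in 12 control members (511.1 and 187.9 CPM), a log2 ratio of 1.44 (0.70 to 2.22) and 1.37 (0.62 to 2.15) over the shallower members. At 500 UMIs it was detected in 20.6% of shallower anti-PD-1 and 9.28% of shallower control members, and in T cells in 4.08% and 3.10%. Its ratio in monocytes was 2.23. Isg15 had a ratio of -0.49 over all members and 0.12 over the shallower ones, with intervals that span 0, and Slfn4 one of 0.32 (0.10 to 0.54).

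The promoter of Ifit3, the gene furthest above 0 in the list, is shown because interferon-induced genes are known to be switched on through the element it holds. In the RefSeq promoter on GRCm38.p6, the 64 bases from 166 to 103 bases before the start (chr19:34583363-34583426, plus strand) read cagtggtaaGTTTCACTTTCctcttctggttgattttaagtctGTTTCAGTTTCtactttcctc. Capitals mark 2 matches to GAAA, any 2 bases and GAAAC, the letters searched for on both strands as the interferon-stimulated response element, here on the opposite strand. Of the 32851 promoters, 269 (0.819%) held a match, as did 25 of 843 promoters (2.97%) of genes measured in the neutrophils. RefSeq's full span of the gene (chr19:34583119-34588982) begins before this start, so the stretch lies inside it.

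Cd274, the gene of PD-L1, through which cells engage PD-1, stood lower in the neutrophils of the anti-PD-1 library. It had 36 UMIs in 25 anti-PD-1 members and 151 UMIs in 53 control members (400 and 1182 CPM), a log2 ratio of -1.56 (-2.13 to -1.03). Without deep members it had 35 UMIs in 24 of 68 and 126 UMIs in 46 of 98, a ratio of -1.36 (-1.94 to -0.81), and -1.44 without the member richest in it. At 500 UMIs it was detected in 26.5% (16.5 to 38.6) of shallower anti-PD-1 and 36.1% (26.6 to 46.5) of shallower control members, intervals that overlap, against 6.12% and 10.9% of T cells. The same direction was seen in other classes, with ratios of -1.02 in macrophages, -1.16 in tumour cells and -0.57 in monocytes.

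Genes of the interferon gamma response, Cd274 among them, lay on both sides of the median gene. Of 11 measured, 9 lay below it and 2 above, the receptor gene Ifngr1 and Jak2, with a median of -0.15 over all members, and over the shallower members 5 were measured, 3 below it and 2 above, with a median of -0.32. The guanylate-binding protein gene Gbp5 had 7 UMIs in 6 anti-PD-1 members and 44 UMIs in 15 control members, a ratio of -2.15 (-3.54 to -0.98), and it was too low to be measured in the shallower members. Gbp2 had 22 UMIs in 17 members and 62 UMIs in 28 members, a ratio of -0.99 (-1.76 to -0.27), and -0.54 over the shallower members, where the interval spans 0. In tumour cells Gbp2 and Gbp5 had ratios of -2.27 and -1.14.

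**Figure D3:**
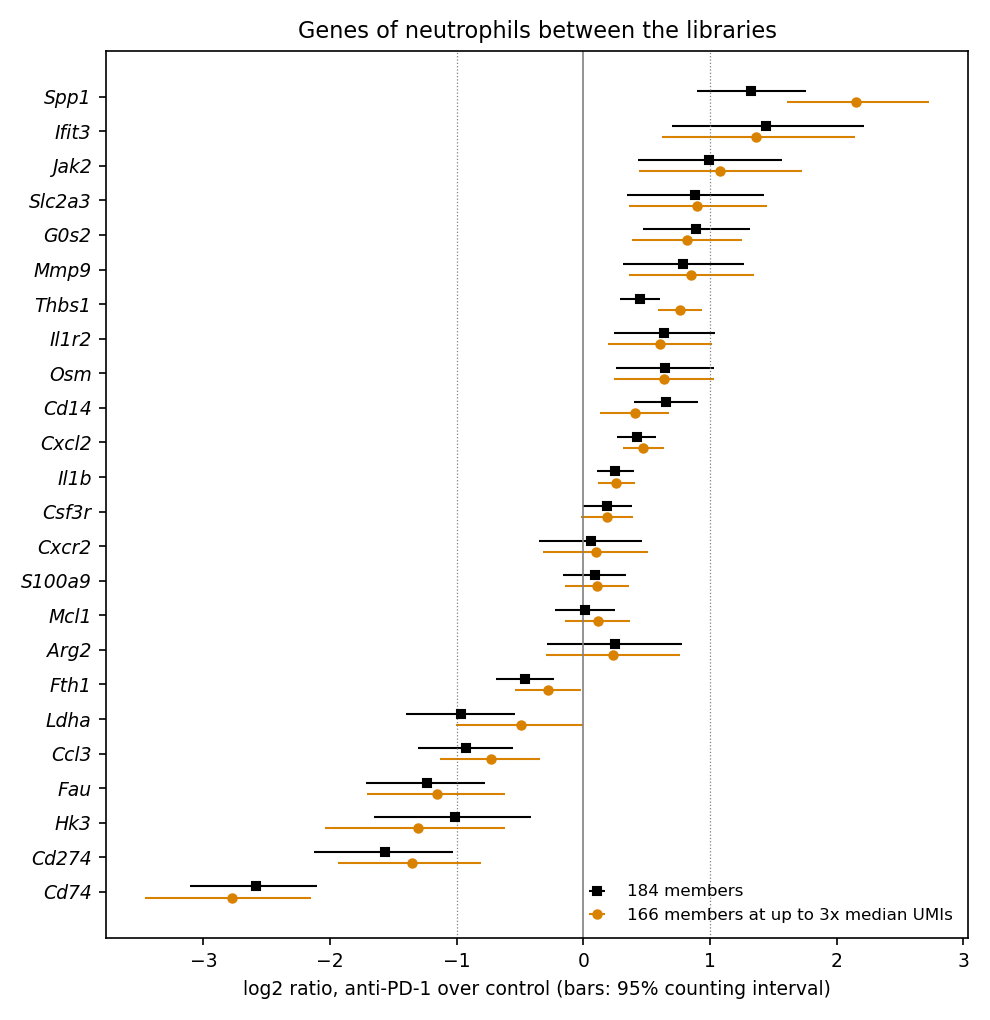
Log2 ratio (anti-PD-1 over control) of 24 genes in neutrophils, with 95% counting intervals. Black squares are all 184 members and orange circles the 166 at up to 3 times the median UMI count, and dotted lines mark 2-fold. Spp1 lies furthest right over the shallower members (2.15) and Cd74 furthest left (-2.77).

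The MHC class II list, whose products show peptides to helper T cells, had the lowest median of the plotted lists. The direction was not that of neutrophils alone. Over the genes with enough UMIs in each class, the list median was -1.58 in macrophages, -1.49 in tumour cells and -0.10 in monocytes. In T cells, with only 49 barcodes in anti-PD-1 and 129 in control, it was 2.80, and how far a few barcodes carry that value was not tested. Cd74, the invariant chain, had 39 UMIs in 20 anti-PD-1 members and 332 UMIs in 50 control members (433.3 and 2599 CPM), a log2 ratio of -2.58 (-3.10 to -2.10). H2-Ab1 had 8 UMIs in 8 members and 100 UMIs in 24 members, a ratio of -3.14 (-4.39 to -2.10). H2-Eb1 had 11 UMIs in 6 members and 110 UMIs in 29 members, a ratio of -2.82 (-3.86 to -1.92). Of the 5 measured genes in the list, 3 were over 5 times higher in another class of barcodes. At 500 UMIs Cd74 was detected in 14.7% of shallower anti-PD-1 and 32.0% of shallower control members, and in T cells in similar shares of 16.3% and 31.0%. T cells were deeper before thinning (median 1497 and 1385 UMIs), and the class II list differed between the libraries in them too. They are therefore no clean background for Cd74, and how much of it is the members' own RNA was not tested. The exception to the direction was Cd80, a costimulatory ligand, at 0.59 (0.08 to 1.10).

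These UMIs were concentrated in a few control barcodes. Over the shallower members, Cd74, H2-Aa, H2-Ab1 and H2-Eb1 summed to 44 UMIs in anti-PD-1 and 414 UMIs in control. In anti-PD-1, 1 member had at least 5 of them, and in control 7 had, which held 15.9% and 78.0% of these UMIs, and the richest member of each had 7 and 235. No UMI of the 4 genes was found in 41 anti-PD-1 members (60.3%) and 42 control members (42.9%). The 7 control members had 0.706% of their UMIs in the 5 marker genes, against 1.63% in the other shallower control members. Without the member richest in the gene in each library, the ratios over the shallower members were -1.84 (-2.61 to -1.13) for Cd74 and -1.42 (-2.87 to -0.18) for H2-Ab1.

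Glycolytic and hypoxia genes lay mostly below the median gene over all members. Of 15 measured, 12 were below it over all members, with a median of -0.34. Without deep members, 12 were measured and 7 lay below it, with a median of -0.06. The median of the same list was also below 0 in monocytes (-0.38), macrophages (-0.41), T cells (-0.36) and tumour cells (-0.44). Ldha, the enzyme that makes lactate, had 64 UMIs in 37 anti-PD-1 members and 177 UMIs in 59 control members, a ratio of -0.96 (-1.40 to -0.54), and -0.49 over the shallower members, where the interval spans 0. Slc2a1, the basal glucose transporter, had a ratio of -0.43 (-0.84 to -0.02), and -0.28 over the shallower members, where the interval spans 0. Hk3, the myeloid hexokinase, which is not in that list and was among the 15 lowest ratios, had 31 UMIs in 22 members and 89 UMIs in 46 members, a ratio of -1.02 (-1.66 to -0.41), and -1.31 (-2.04 to -0.62) over the shallower members.

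Other genes of the 15 lowest ratios, chosen for those ratios, included the following. Fau, which encodes a ribosomal protein fused to a ubiquitin-like one, had 51 UMIs in 40 anti-PD-1 members and 170 UMIs in 69 control members, a ratio of -1.23 (-1.71 to -0.77), and -1.15 over the shallower members. Rack1, Eef2, Npm1 and Eef1b2 had ratios of -1.20, -1.18, -0.99 and -1.08, and of -0.71, -0.66, -0.74 and -0.81 over the shallower members, where the interval of Eef2 spans 0. Vim, an intermediate filament gene named after its values were seen, stood at 6499 CPM in anti-PD-1 and 9488 CPM in control, and at 15933 and 18751 CPM in tumour cells. It had a ratio of -0.55 over all members and -0.28 over the shallower ones. Ferritin heavy chain, Fth1, had a ratio of -0.46 (-0.69 to -0.23), and -0.28 over the shallower members. The Fth1 ratio was also below 0 in monocytes (-0.68), macrophages (-0.45), T cells (-0.61) and tumour cells (-0.50).

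Globin genes were lower in anti-PD-1, and not in neutrophils alone. Hba-a2 had 2 UMIs in 2 anti-PD-1 members and 115 UMIs in 55 control members, a ratio of -5.34 (-8.40 to -3.45), and -4.93 over the shallower members, while its ratio in tumour cells was -3.51. Hbb-bs had 10 and 76 UMIs, a ratio of -2.42, and -1.83 over the shallower members, against -3.41 in tumour cells. These genes belong to red blood cells. The ratio of Hba-a2 was also negative in monocytes (-2.61), macrophages (-3.34) and T cells (-2.87).

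**Figure D4:**
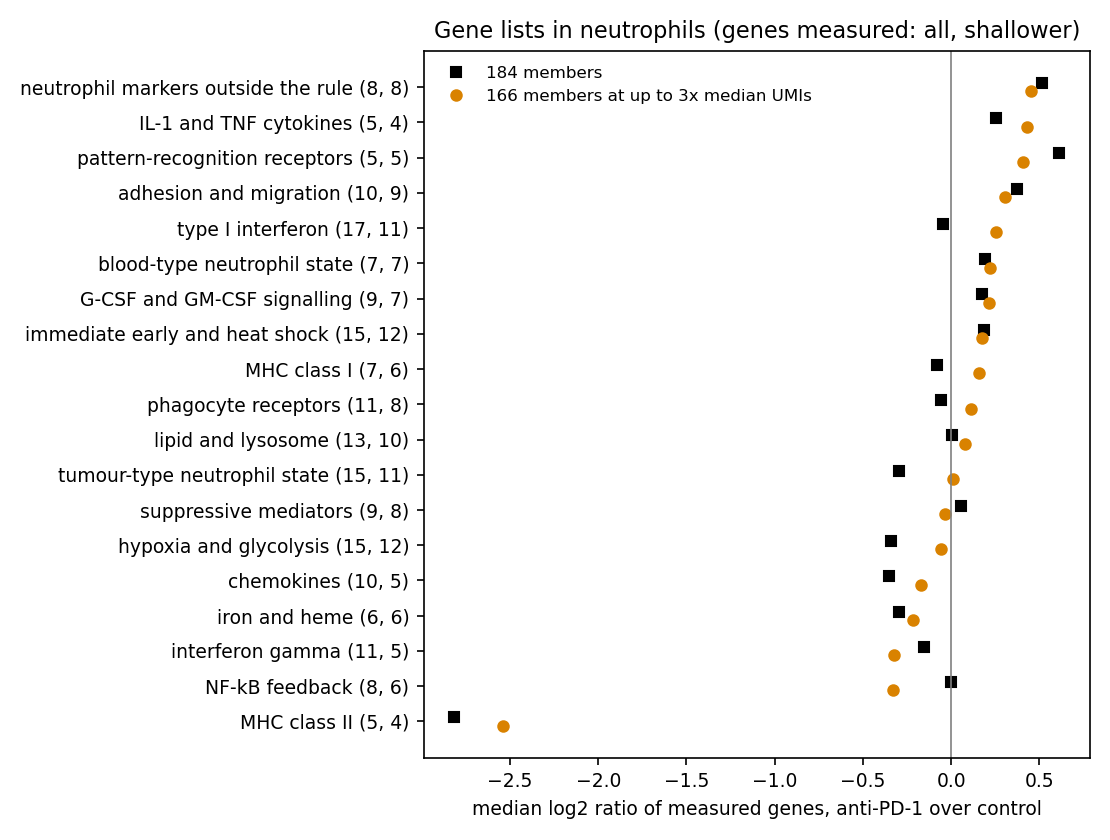
Median log2 ratio (anti-PD-1 over control) of the measured genes of each list in neutrophils. Black squares are all 184 members and orange circles the 166 shallower ones, and the numbers of measured genes stand in parentheses. Neutrophil markers outside the rule lie highest over the shallower members (0.45) and MHC class II lowest (-2.54).

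Several genes had intervals that span 0 over all members. The survival gene Mcl1, on which neutrophils depend, had 255 UMIs in 64 anti-PD-1 members and 358 UMIs in 93 control members, a ratio of 0.02 (-0.22 to 0.25). Arg2 had a ratio of 0.25 (-0.28 to 0.78), Acod1 one of 0.06 (-0.35 to 0.45) and Ptgs2, a prostaglandin enzyme gene named after its values were seen, one of 0.19 (-0.12 to 0.50). Over the shallower members these ratios were 0.11 for Mcl1, 0.24 for Arg2 and 0.04 for Acod1, with intervals that span 0, and 0.38 (0.06 to 0.71) for Ptgs2, whose interval lies above 0. The list of suppressive mediators had a median of 0.06 over 9 measured genes and the G-CSF and GM-CSF signalling list one of 0.17 over 9. The list of genes described in tumour-type neutrophils had a median of -0.30 over 15 measured genes, and of 0.01 over 11 in the shallower members. These intervals limit differences, and they do not show that the libraries were alike.

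The members varied among themselves in the CC chemokines. Splits were chosen after the data were seen, and each compares members of 1 library. A UMI of Ccl3 or Ccl4 was found in 29 of 68 shallower anti-PD-1 members (42.6%, 30.7 to 55.2) and 55 of 98 control members (56.1%, 45.7 to 66.1), at median depths of 704 UMIs in anti-PD-1 members with it and 751 without, and of 765 and 673 UMIs in control. Of 174 genes with enough UMIs, 8 were over 2-fold higher in the members with Ccl3 or Ccl4 in both libraries, Ccl3 and Ccl4 included, and 1 was lower.

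In the shallower members, the genes that went with Ccl3 and Ccl4 included chemokines and Cd274. Cxcl3 was higher by 3.19 in anti-PD-1 and 2.33 in control on the log2 scale (members with over members without), Pik3ap1, an adaptor of PI3 kinase, by 1.52 and 1.29, and Ccl6 by 1.49 and 1.18. Cd274 was higher by 1.14 (0.08 to 2.25) in anti-PD-1 and 1.41 (0.78 to 2.08) in control, and Hk3 by 2.23 and 1.02. Lyz2, the lysozyme of granules, had values of -1.05 and -1.02. Hp, haptoglobin, had values of -0.84 in anti-PD-1 and -2.24 in control.

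**Figure D5:**
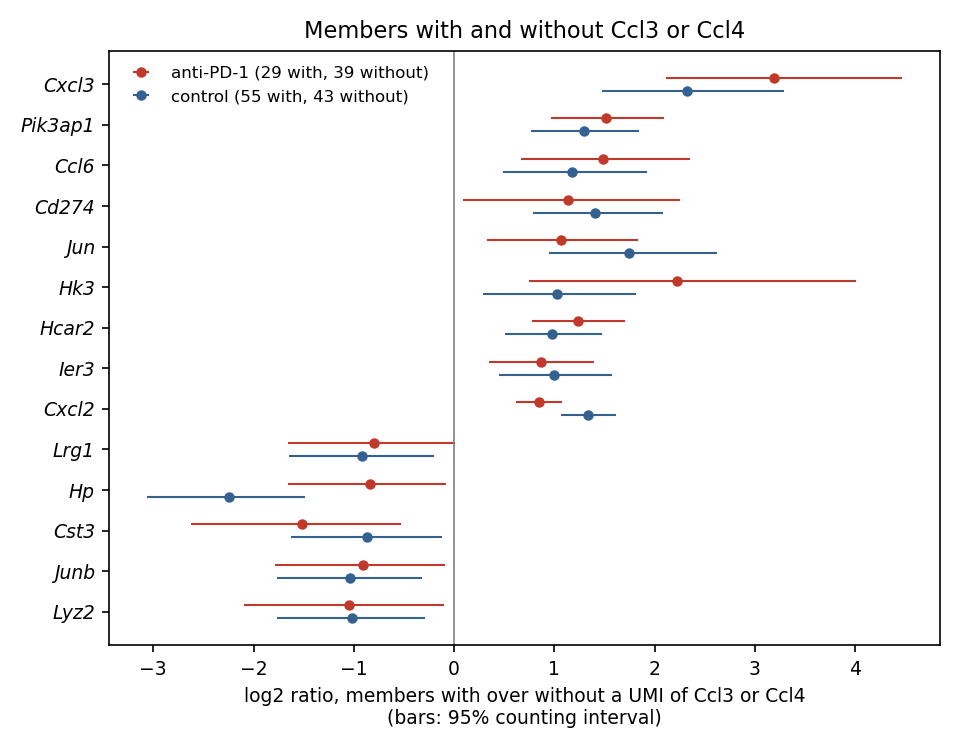
Log2 ratio of shallower members with over those without a UMI of Ccl3 or Ccl4, for 14 genes. Anti-PD-1 is in red above and control in blue below. Bars are 95% counting intervals and the numbers of members stand in the legend. Cxcl3, Pik3ap1, Ccl6, Cd274 and Jun lie right of 1 and Lyz2 left of -1 in both libraries.

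S100a8 and S100a9 are genes of the rule, so a split by them is given as a description only. A UMI of either was found in 52 of 68 shallower anti-PD-1 members (76.5%) and 72 of 98 control members (73.5%). The rest had been chosen through Csf3r, Cxcr2 and Hdc alone, and needed at least 4 UMIs of these. Members with S100a8 or S100a9 needed only 1 such UMI, so the sides were admitted differently. How far this shapes the values below was not tested. Slc2a3 was higher in members with S100a8 or S100a9 by 2.76 in anti-PD-1 and 2.15 in control, Hmox1, which breaks down heme, by 2.18 and 1.48, Acod1 by 2.11 and 1.11, and Hcar2 by 2.19 and 1.10. Spp1 was higher by 3.12 in anti-PD-1 and by 0.93 in control, where the interval spans 0. Over all members its values were 2.81 in anti-PD-1 and -0.85 (-1.55 to -0.15) in control, so the control direction depended on the deep members. Ctss and Lyz2, a lysosomal protease and lysozyme that macrophages also carry, had values of -2.23 and -2.44 in anti-PD-1 and of -1.71 and -1.56 in control. Members without S100a8 or S100a9 still had at least 2 of the 19 independent neutrophil genes in 14 of 16 in anti-PD-1 and in 25 of 26 in control. Siglecf, a marker of aged tumour neutrophils in mice, was found in 4 of 76 anti-PD-1 and 5 of 108 control members, too few to describe a split.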

How the data were processed

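The authors deposited UMI counts per gene and barcode, not normalized, per the file headers, for 2 libraries and 19070 genes. Per the labels, a 10x Genomics Flex kit (gene-specific probes) was used, and a 3' protocol is also named. The file headers name Cell Ranger 9.0.1, whereas version 7.0.1 and the build mm10 come from the submitters' processing notes. The 5 duplicated symbols were kept as separate rows. UMIs were summed over members per library and scaled to CPM, and log2 ratios put anti-PD-1 on top. Counts got exact Poisson intervals, ratios conditional exact binomial intervals and shares Clopper-Pearson intervals, at 95%. These cover counting error only. A gene at 0 was set against 3 counts per library. Genes with at least 50 UMIs over both libraries count as measured. Python 3.11.15, numpy 2.4.6, scipy 1.17.1 and pandas 2.3.3 were used, with R 4.3.3 and edgeR 4.0.16 for TMM factors only. No doublet caller was run. The rule left out barcodes with a UMI of Ccr2, Cd3e or C1qa and those at or above the tumour-gene limit. Some members with genes of other cells remained. Deep members were also removed as an alternative. The ratio and share calculations were tested on simulated data. Those data held counting error only, so the check says nothing on variation between members.

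Members, lists and the choice of genes to name were settled with earlier results of these data known. Named genes were the rule's markers, up to 5 genes per list with ratios furthest from 0, the 15 highest and 15 lowest ratios at 100 or more UMIs, the 20 leading genes over monocytes and macrophages, and colony-stimulating and neutrophil-attracting factors. Other genes were named after their values were seen.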

Additional observations from a re-analysis of the deposited data

Results flagged for a closer look

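The log2 ratios (anti-PD-1 over control) of 6 genes pointed one way in neutrophils and the other way in another myeloid class. The differences between classes were not tested. Selp, the endothelial and platelet selectin, stood at 7.18 in neutrophils and -3.52 in macrophages, and 1 anti-PD-1 member held all 102 of its anti-PD-1 UMIs. Igfbp7 stood at 5.15 in neutrophils, -3.65 in monocytes and -2.78 in macrophages, Col4a2 at 4.56 in neutrophils and -1.41 in macrophages, and Aqp1 at 4.24 in neutrophils and -1.84 in macrophages. The deepest anti-PD-1 member held 136 of 150 Igfbp7 UMIs and 117 of 120 Aqp1 UMIs, and 1 anti-PD-1 member held 82 of 116 Col4a2 UMIs. The deepest member was led by genes of vessel walls and had 6 UMIs of the marker genes among 8016. These ratios are therefore not read as a trait of neutrophils. Col1a2 stood at 3.58 in neutrophils, -2.51 in monocytes and -1.46 in macrophages, with 183 of 186 anti-PD-1 UMIs in another deep member. Lrg1, which neutrophils also make, stood at 1.65 in neutrophils and -1.77 in macrophages. Over the shallower members its ratio was 0.30 (-0.22 to 0.81), and none of the other 5 genes had enough UMIs there to be measured.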

How the results depend on the processing

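The lower share of neutrophils in anti-PD-1 kept its direction under every alternative run. The difference of -0.48 points over kept barcodes was -0.102 with at least 1000 genes and -0.148 with barcodes thinned to 1000 UMIs. Counts of genes past 2-fold, 51 higher and 49 lower of 807 over all members, depended on the choice of members, as did the number of measured genes. The numbers higher and lower were 25 and 6 of 296 measured genes with a marker sum of at least 8. They were 13 and 25 of 553 with Hdc left out, and 181 and 443 of 8887 with no limit on Ccr2, Cd3e and C1qa. A tumour-gene limit of 200 CPM gave 17 and 27 of 564, and leaving out deep members gave 11 and 12 of 447. Without members holding a basophil or mast cell UMI they were 33 and 31 of 704. For members with at least 2 independent markers they were 26 and 28 of 626. Genes with at least 200 UMIs gave 6 and 2 of 86, and no minimum gave 1404 and 1481 of 9020. Thinning gave 16 and 4 of 90 at 1000 UMIs per barcode and 6 and 10 of 256 at 500. With each cell weighted equally, 32 of 807 were lower. The 50 genes over 4-fold higher than in monocytes and macrophages became 16 with no limit on Ccr2, Cd3e and C1qa. They became 4 with at least 1000 genes, where most members left were deep ones.

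The chemokine median was 0.52 and the hypoxia median 0.36 with a marker sum of at least 8. With no limit on Ccr2, Cd3e and C1qa, the chemokine median was 0.59 and the class II median -0.89, and the ratio of Gbp5 was 0.043, of Wfdc17 0.88, of Nfkbia 0.12, of Igfbp7 -1.73, of Col4a2 -1.43, of Aqp1 -1.87, of Col1a2 -1.52 and of Col3a1 -0.36. With at least 1000 genes, 10 anti-PD-1 and 15 control members were left, and 8 and 10 of these were the deep members. Among them the ratio of Spp1 was -0.97, of Klf6 -0.062, of Cxcl2 -0.60, of Il1b -0.033, of Thbs1 -1.58 and of Srgn -1.12. Without the richest member of each library Aqp1 stood at -0.68 and Col1a2 at -2.003, and Selp gave no value. With a marker sum of at least 8, Col3a1 stood at -1.77, Fth1 at 0.27 and Slc2a1 at 0.13. Col3a1 stood at -0.63 with Hdc left out, and Fth1 at 0.023 and Slfn4 at -0.086 at 1000 UMIs per barcode. The causes were not tested. Other scalings shifted the median by 0.0078 (median of ratios) and 0.0017 (TMM). The alternatives with 500 UMIs, 2 independent markers, the tumour-gene limit from 2 UMIs and the richest member left out were chosen after seeing the data. The Siglecf split was not run for its size. No paired analysis was possible because each group has 1 library, and for the same reason no replicate could be left out.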
